A study of Homo sapiens with 21 samples.

Results

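In these data 9 genes of the insulin-like growth factor (IGF) system were followed through human cardiomyocyte differentiation. They are the ligand IGF2, the receptors IGF1R and IGF2R, and the binding proteins IGFBP2, IGFBP3, IGFBP4, IGFBP5, IGFBP6 and IGFBP7. Every row with one of these gene symbols was taken from the 6 deposited result tables, which between them list 11851 genes and 21537 transcripts. Of the 9 members, 6 were listed in at least 1 table, through 17 transcripts and 36 rows. IGF1R, IGF2R and IGFBP4 were in no table, which means that none of their transcripts passed the limit for listing in any comparison, and their levels cannot be read here.

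Poly-A RNA was sequenced from PGP1, an established human induced pluripotent stem cell (iPSC) line, and from cells differentiated from it by switching WNT signaling first on and then off. Wild-type cells were sampled as iPSCs, mesoderm (M), cardiac mesoderm (CMes), cardiac progenitors (CP) and cardiomyocytes (CM), with 3 libraries at each of the 5 stages. The other 6 libraries are CMs of the lines UBE2B-/-1 and UBE2B-/-2, 3 libraries each, in which the gene for UBE2B, the enzyme that hands ubiquitin to histone H2B, was disrupted with Cas9. Each replicate came from a plate begun at a different time. The mutant lines share the PGP1 background, were edited in separate experiments and were grown from picked colonies, so each line stands for 1 clone. The CMs of all 3 genotypes came from beating wells and were enriched in lactate medium without glucose, and the mutants had been plated at a higher density. The study reports that mutant cells formed beating CMs less efficiently than wild type. In its staining, only part of the beating mutant cells carried the cardiomyocyte protein TNNT2, so equal purity of the genotypes cannot be assumed. The iPSCs were kept in mTESR medium, while differentiation began in another medium with a supplement without insulin and changed to the full supplement in its later part. The collection day of each stage is not given in the sources used here. A difference in medium or insulin supply and a difference in stage therefore cannot be told apart.

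IGF2 is a secreted growth factor of fetal tissues, made from an imprinted gene, and it signals for growth and survival through IGF1R and the insulin receptor. IGF2R binds the ligand without such signaling and carries it to lysosomes. The binding proteins hold IGFs in and around the tissue, can block or prolong their action, and are cut by proteases such as PAPPA that set the ligand free. IGFBP7 is a more distant relative with weak affinity for IGFs that also binds matrix.

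The deposited tables come from Sleuth, which tests each transcript, and they hold no value per library. For this reason no spread of single libraries and no overlap between groups can be shown. Levels are group means of estimated counts over 3 libraries, recovered from the fit, and the spread is the SD within groups on the log2 scale. Changes are log2 values with the standard error (SE) of the fit, positive where the later stage or the mutant is higher. Calls required both a q-value no higher than 0.05 and a 1.79-fold effect or more, which is the study's limit of 1.5 applied as log2(1.5) to the natural-log effect. In bulk RNA, fewer cells of a type and less RNA per cell cannot be told apart. The cell identities implied by the labels were checked with marker lists. From iPSC to M, 3 of 5 primitive streak and mesoderm markers were higher, and 0 of 5 pluripotency markers were called. From M to CMes, 4 of 6 cardiac progenitor markers were higher and 3 pluripotency markers lower, with 2 streak markers higher and 1 lower. From CMes to CP, 6 of 7 cardiomyocyte and 5 of 6 progenitor markers were higher, and 5 of 5 streak markers lower. From CP to CM, 7 of 7 cardiomyocyte markers were higher and 4 of 5 pluripotency markers lower. Of the mutant lines, UBE2B itself is listed only for UBE2B-/-1, through ENST00000499038.2, which was lower by a log2 change of -1.91 (SE 0.53), so these tables do not check the edit in UBE2B-/-2.

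The promoters of 4 listed binding protein genes are shown first, because IGFBP3, IGFBP5 and IGFBP6 rose together from CMes to CP, while IGFBP2 is not listed there and its CP level is unknown. Each line holds the 250 bases before a gene's start from RefSeq on GRCh38.p14, 5′ to 3′ on the gene's own strand, and each window ends right before the first base of a listed transcript. Capitals mark matches on either strand to 5 motifs searched, the GC box GGGCGG, the TEAD motif CATTCC, the TATA box TATAAA, the GATA motif AGATAA and the E-box CACGTG.
IGFBP5 (chr2:216695550-216695799, minus strand): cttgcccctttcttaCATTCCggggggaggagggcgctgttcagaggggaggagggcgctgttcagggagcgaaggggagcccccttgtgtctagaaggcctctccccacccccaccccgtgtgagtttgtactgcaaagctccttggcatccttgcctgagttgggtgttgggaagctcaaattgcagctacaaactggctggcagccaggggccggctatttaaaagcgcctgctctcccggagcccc
IGFBP3 (chr7:45921273-45921522, minus strand): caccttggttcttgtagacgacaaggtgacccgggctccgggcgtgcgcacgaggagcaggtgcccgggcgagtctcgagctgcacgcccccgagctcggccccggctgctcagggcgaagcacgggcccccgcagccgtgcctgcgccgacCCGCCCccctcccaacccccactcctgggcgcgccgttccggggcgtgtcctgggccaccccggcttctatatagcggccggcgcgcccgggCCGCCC
IGFBP2 (chr2:216633170-216633419, plus strand): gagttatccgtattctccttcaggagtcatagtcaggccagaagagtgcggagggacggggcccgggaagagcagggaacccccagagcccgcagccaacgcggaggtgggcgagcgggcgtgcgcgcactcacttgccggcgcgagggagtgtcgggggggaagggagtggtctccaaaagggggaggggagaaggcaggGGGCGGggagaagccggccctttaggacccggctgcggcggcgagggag
IGFBP6 (chr12:53097417-53097666, plus strand): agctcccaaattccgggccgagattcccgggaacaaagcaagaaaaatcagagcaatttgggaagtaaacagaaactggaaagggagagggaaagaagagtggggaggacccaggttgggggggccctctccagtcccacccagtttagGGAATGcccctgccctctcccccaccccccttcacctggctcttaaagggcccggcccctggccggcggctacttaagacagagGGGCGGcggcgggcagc

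A GC box lies 49 bases before the start of IGFBP2, 17 bases before that of IGFBP6, and at 98 and 6 bases before that of IGFBP3, while the IGFBP5 window has none. The TEAD motif is found 235 bases before the start of IGFBP5 and 101 bases before that of IGFBP6. Among all 35116 promoters of the same length, 42.6% hold the GC box and 11.9% the TEAD motif. Exact matches to the TATA box letters TATAAA (10.7% of all promoters), the GATA motif (9.17%) and the E-box (6.34%) were found in none of these 4 windows. Other spellings of a motif were not searched, and near their ends the IGFBP5 window holds tatttaaa and the IGFBP3 window tatata. These promoters are therefore not shown to lack a TATA-like element. The GC content was 76% for IGFBP3, 69.2% for IGFBP2 and 61.2% for both IGFBP5 and IGFBP6, beside a median of 58% over all promoters. The table of promoters held entries for 7 of the 9 members, without IGF2 and IGFBP7.

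The members lie on several chromosomes of GRCh38. IGFBP2 (chromosome 2, 216632828 to 216664436, plus strand) and IGFBP5 (216672105 to 216695549, minus strand) face each other end to end with 7668 bases between them. IGFBP3 is on chromosome 7 (45912245 to 45921874), IGFBP6 on chromosome 12 (53097436 to 53102345), IGFBP7 on chromosome 4 (57030773 to 57110385) and IGF2 on chromosome 11 (2129112 to 2158391). Of the 17 listed transcripts, 16 were found in GENCODE 44, which annotates 64 transcripts for the 9 genes, and 15 with the same version. How many of the unlisted member transcripts were tested is not known, so the members are given as counts and not as shares.

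Over the whole differentiation, the members were not listed at the earliest transition, mostly rose from M to CMes and from CMes to CP, and went both ways from CP to CM. From iPSC to M, 0 member transcripts were listed, while 1.24% of the 68446 transcripts tested were called higher and 1.62% lower. From M to CMes, 8 member transcripts of 4 genes were called, 6 higher and 2 lower, beside 3.81% of all transcripts higher and 2.65% lower. From CMes to CP, 13 transcripts of 5 genes were called and all 13 were higher, beside 3.8% of all transcripts higher and 2.63% lower. From CP to CM, 5 transcripts of 4 genes were called, 2 higher and 3 lower, beside 8.25% and 6.99% of all transcripts. The median log2 change of the members listed was 4.22 from M to CMes, 5.12 from CMes to CP and -1.57 from CP to CM, where the medians over all listed transcripts were 0.57, 0.40 and 0.63. Rises and falls offset each other in the latter, and the median absolute change of all listed transcripts was 1.22, 1.06 and 1.83. The member medians count transcripts and not genes, and from CMes to CP 6 of the 13 are of IGFBP3 and 4 of IGF2. With the 2 transcripts that rose from 0 set to their lower bound, the CMes to CP median of the members was 4.74. Every member transcript that was listed also passed the limit on the effect. The libraries of a stage enter the comparisons on either side of it, and the changes are therefore not independent.

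**Figure D1:**
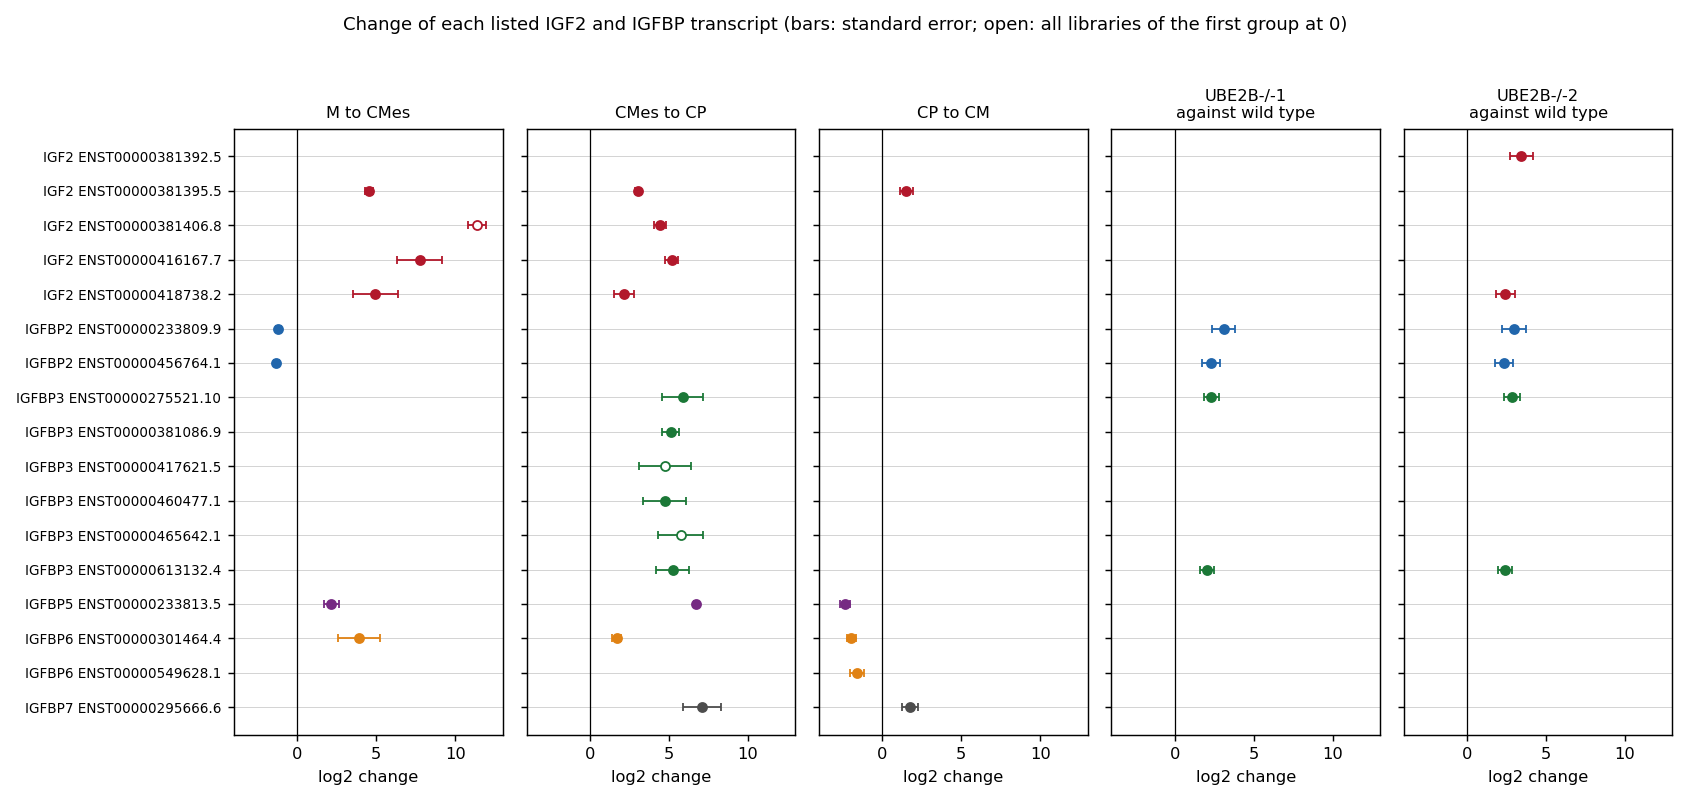
Log2 change (x axis) of each of the 17 listed member transcripts (rows) in the 5 comparisons that list a member, with the SE of the fit as bars and open points where all libraries of the earlier stage were at 0. The 13 points of the CMes to CP panel lie between 1.72 and 7.09, and both mutant panels hold only positive values.

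IGF2 transcripts rose from M to CMes and from CMes to CP, and 1 of them was also called higher from CP to CM. That transcript, ENST00000381395.5, had a mean of 49.1 estimated counts at M, 1142 at CMes, 9294 at CP and 26953 at CM, on a scale shared by the stages. The within-group SD was between 0.19 and 0.50 on the log2 scale in these fits, smaller than each step between stages. The log2 changes were 4.53 (SE 0.26, q-value 4.33e-67), 3.02 (SE 0.15, q-value 2.72e-83) and 1.54 (SE 0.41, q-value 0.00175), so the steps became smaller.

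The other long IGF2 transcripts had larger log2 changes up to CP, and a short one was low throughout. ENST00000381406.8 was at 0 in every M library, 1349 estimated counts at CMes and 29784 at CP, at least 447-fold higher at CMes against a floor of 3 counts per library. ENST00000416167.7 went from 2.77 to 708 and then 25636 estimated counts, with log2 changes of 7.76 (95% interval 4.98 to 10.5) and 5.18 (SE 0.39). Its SD within groups was 1.74 in the earlier of these fits and 0.48 in the later. The short ENST00000418738.2 reached only 126 estimated counts at CP from 0.423 at M and 27.8 at CMes, with log2 changes of 4.94 (95% interval 2.15 to 7.73) and 2.16 (SE 0.62). From CP to CM, ENST00000381395.5 alone is listed, which held 14.3% of the summed IGF2 estimated counts at CP, so the course of IGF2 as a whole at that transition is not known.

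The IGF2 transcripts differ in where they begin and in length, from 934 bases in ENST00000418738.2 to 5580 in ENST00000416167.7. ENST00000416167.7 begins farthest upstream, ENST00000381406.8 begins 415 bases downstream of it, and ENST00000381395.5 and ENST00000418738.2 begin 2099 and 2084 bases downstream. All have 4 exons, and their coding parts are 540 bases long, or 549 in ENST00000381406.8. At M, ENST00000381395.5 made up 93.9% of the estimated counts summed over the 4 transcripts, at CMes 35.4% and at CP 14.3%. The share of ENST00000416167.7 was 5.30%, 21.9% and 39.5% at these stages, and ENST00000381406.8 held 41.8% at CMes and 45.9% at CP. The sum over the 4 transcripts was 61.7 times higher at CMes than at M and 20.1 times higher at CP than at CMes. The listed IGF2 transcripts share 92.5% to 100% of their 31-base words with each other, so the split of reads between them is uncertain. IGF2 also overlaps the genes INS-IGF2 and IGF2-AS, which are in no table, and whether reads were counted by strand is not given in the sources used here.

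**Figure D2:**
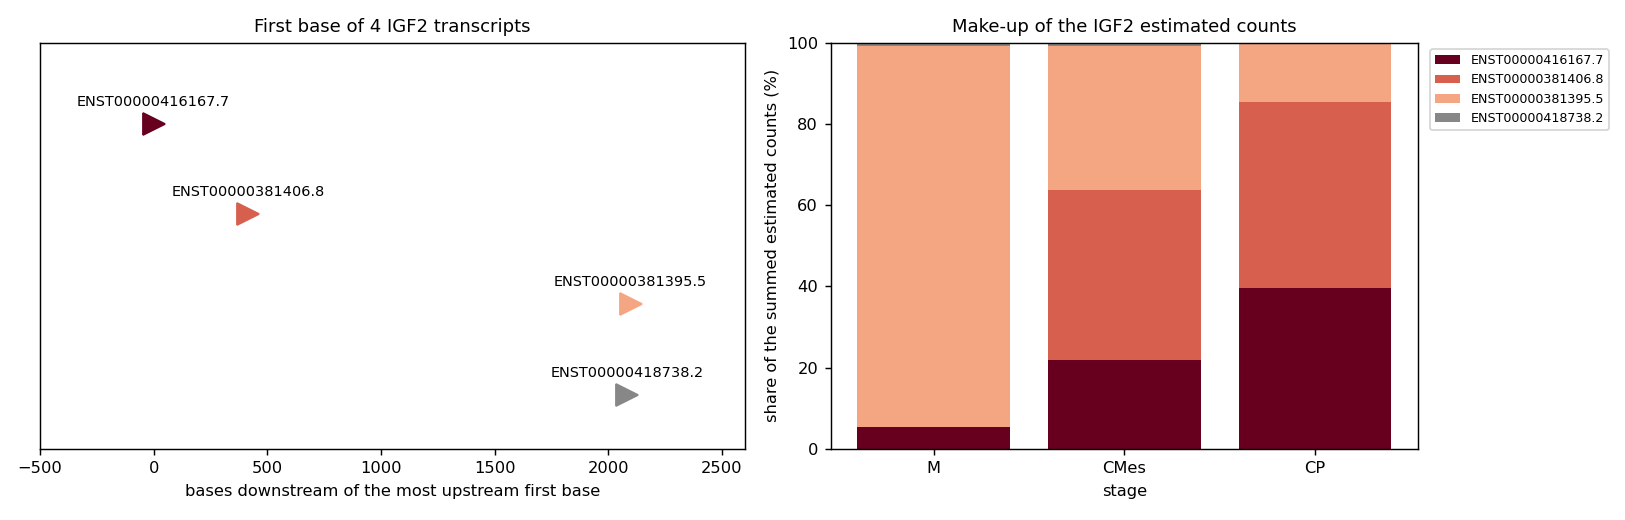
Left, the first base of 4 IGF2 transcripts by distance in bases from the most upstream one. Right, the share in percent of each transcript in their summed estimated counts at M, CMes and CP, in which ENST00000381395.5 goes from 93.9% to 14.3%.

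The 5 transcripts of other genes with log2 changes nearest to those of IGF2 ENST00000381395.5 at its 3 transitions, among 1327 transcripts listed in all of them, belonged to SLIT3, MYL7, CLIP4, RCSD1 and AC084357.3. Their distances were 0.99 to 1.48 on the log2 scale. SLIT3, a secreted guidance protein, changed by 4.72, 2.06 and 1.52. For MYL7, the atrial myosin light chain, the values were 5.66, 2.77 and 2.06 through ENST00000457910.1. The MYL7 transcript with the highest mean, ENST00000223364.7, changed by 8.35, 2.49 and 4.74, so the nearness did not extend to it.

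IGFBP5, which binds IGFs and the extracellular matrix, had the largest z of all transcripts listed from CMes to CP. Its 1 listed transcript, ENST00000233813.5, had 30.4 estimated counts at M, 138 at CMes, 14648 at CP and 2845 at CM. The step from CMes to CP was 106-fold, a log2 change of 6.72 (SE 0.12) with an SD within groups of 0.15. Before it, from M to CMes, the transcript rose by 2.16 (SE 0.50, q-value 0.000431). From CP to CM it fell by 2.36 on the log2 scale (SE 0.32, q-value 3.18e-12) and was still above the CMes mean. IGFBP5 thus had its highest mean at CP.

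IGFBP3, the main IGF carrier of serum, rose from CMes to CP through 6 transcripts and is not listed at the other transitions. The most abundant, ENST00000381086.9, had 180 estimated counts at CMes and 6285 at CP and rose by 5.12 on the log2 scale (SE 0.55, q-value 9.82e-19). ENST00000613132.4 went from 61.9 to 2371 and ENST00000275521.10 from 14.6 to 888 estimated counts, with log2 changes of 5.25 (SE 1.07) and 5.88 (SE 1.29). The remaining 3 were low, at 13.3 to 26.5 estimated counts at CP. In GENCODE 44, ENST00000460477.1 is a retained intron, ENST00000465642.1 has no defined coding part, and ENST00000417621.5 lacks the start of its coding part. ENST00000465642.1 and ENST00000417621.5 were at 0 in every CMes library and at least 8.82-fold and 4.45-fold higher at CP. The sum over the 6 transcripts was 37.3 times higher at CP than at CMes. The listed IGFBP3 transcripts share 39.3% to 99.1% of their 31-base words with each other, without ENST00000275521.10, which is not in GENCODE 44. The split of reads between them is therefore uncertain.

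For 2 IGFBP3 transcripts the wild-type CM mean is known from the fit with the mutants. ENST00000613132.4 had 2092 and ENST00000275521.10 had 706.9 estimated counts at CM, differences from CP of -0.18 (SE 0.82) and -0.33 (SE 0.98) on the log2 scale. These differences are smaller than their errors, and the errors allow sizable changes in either direction.

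IGFBP6, which prefers IGF2 to IGF1, followed a course like that of IGFBP5 at lower levels. ENST00000301464.4 had 5.48 estimated counts at M, 89.3 at CMes, 296 at CP and 76.2 at CM. Its log2 changes were 3.91 (SE 1.31, q-value 0.0333), 1.72 (SE 0.28, q-value 4.49e-08) and -1.95 (SE 0.30, q-value 4.09e-09). The spread within groups was wide in the fit of M and CMes (SD 1.60) and narrower later (SD 0.35 in both fits). The shorter ENST00000549628.1 fell from 144 at CP to 48.1 at CM, a log2 change of -1.57 (SE 0.44).

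IGFBP7 came on at CP and went on rising. ENST00000295666.6 had 2.15 estimated counts at CMes, 361 at CP and 1218 at CM. The log2 changes were 7.09 (95% interval 4.72 to 9.46, q-value 1.9e-07) and 1.75 (SE 0.48, q-value 0.0026). The SD within groups of 1.48 in the fit of CMes and CP was among the widest of the members.

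IGFBP2, a binding protein of fetal tissue, was the only listed member that fell from M to CMes. ENST00000233809.9 went from 1149 estimated counts at M to 502 at CMes, and ENST00000456764.1, which begins within the gene, from 958 to 378. The log2 changes were -1.19 (SE 0.17, q-value 1.18e-10) and -1.34 (SE 0.16, q-value 1.22e-15). Neither is listed at a later transition. Their wild-type CM means of 357 and 331 estimated counts differed from CMes by -0.49 (SE 0.53) and -0.19 (SE 0.43) on the log2 scale, less than the errors.

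**Figure D3:**
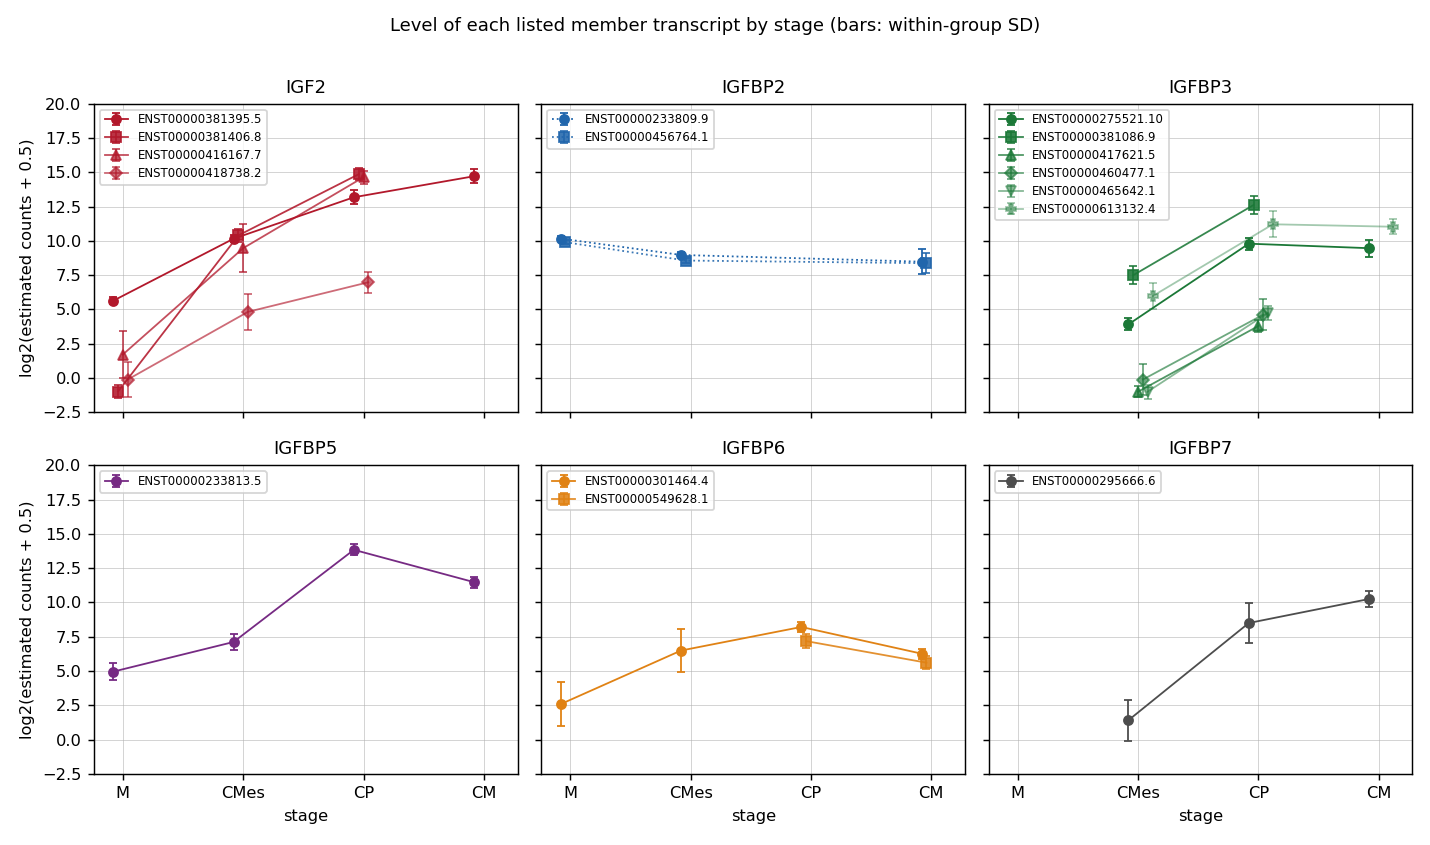
Level of each listed member transcript (y axis, log2 of estimated counts plus 0.5, on 1 scale for all stages) at M, CMes, CP and CM (x axis), with the within-group SD as bars. IGF2 ENST00000381395.5 and IGFBP7 have their highest mean at CM and IGFBP5 and IGFBP6 theirs at CP, the other IGF2 transcripts have no CM value, and the CM points of IGFBP2 and IGFBP3 come from the fit with the mutants. Dotted lines pass over a stage with no value.

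Divided by transcript length, the levels can be ordered between genes, for transcripts with a GENCODE length of the same version. At CMes the highest were IGFBP2 ENST00000456764.1 with 447 and ENST00000233809.9 with 355 estimated counts per kilobase, followed by 260 and 252 for the IGF2 transcripts ENST00000381406.8 and ENST00000381395.5. At CP the IGF2 transcripts ENST00000381406.8 and ENST00000416167.7 led with 5751 and 4594, and IGFBP3 ENST00000381086.9 (2707), IGFBP5 (2348) and IGF2 ENST00000381395.5 (2053) came next, with neighbors closer than their SD of 0.39 to 0.67. IGFBP6 ENST00000301464.4 (312) and IGFBP7 (253) lay lower by several-fold. At CM the order per kilobase was IGF2 ENST00000381395.5 (5954), IGFBP7 (853), IGFBP5 (456), IGFBP2 (391 and 252) and IGFBP6 (80.6 and 80.4), without IGFBP3, whose transcripts with a CM mean have no length of the same version. These orders are descriptions, since the transcripts were not tested against each other.

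Markers of other cells moved at the same transitions. From CMes to CP, 5 of 8 fibroblast and mesenchymal markers were higher and 1 lower, and their sum went from 8970 to 98230 estimated counts, led by COL1A1 and COL3A1. At that transition 3 of 7 epithelial and endoderm markers were higher and 1 lower (7286 to 41095), led by TTR, and 2 of 4 epicardial markers were higher, of which WT1 was at 0 in every CMes library. From CP to CM the fibroblast list had 2 markers higher and 5 lower (54046 to 12585), and the endoderm list 5 lower (30861 to 2478). The cardiomyocyte list went from 14275 to 528627, 3 of 6 endothelial markers were lower and 4 of 4 smooth muscle markers higher. Each sum covers only the transcripts listed at its transition, so the sums of a list differ at a shared stage. COL1A1 ENST00000225964.9, with 33499 estimated counts at CP, is not listed from CP to CM. There COL1A1 counts as higher through ENST00000507689.1 (45.4 to 135). From M to CMes, 5 of 8 fibroblast markers were higher (48.8 to 2918), with COL3A1, LUM and POSTN at 0 in every M library. Among the other lists, 3 of 7 epithelial and endoderm markers were higher from M to CMes, with SOX17 at 0.565 and 1628 estimated counts. At that transition 1 of 6 endothelial and 2 of 4 smooth muscle markers were higher, and 2 of 4 smooth muscle markers were higher and 1 of 6 endothelial markers lower from CMes to CP. The part of such cells in the changes of the IGF members was not tested.

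The comparison of UBE2B-/- CMs with wild type asks which genes depend on the enzyme that deposits H2Bub1, and there IGFBP2 and IGFBP3 were higher in both lines. In UBE2B-/-1, 4 member transcripts of 2 genes were called, all 4 higher, beside 2.18% of the 65457 transcripts tested called higher and 1.72% lower. In UBE2B-/-2, 6 transcripts of 3 genes were called, all 6 higher, beside 2.46% and 1.53% of all transcripts. The median log2 change of the listed members was 2.32 in UBE2B-/-1 and 2.64 in UBE2B-/-2, where the medians of all listed transcripts were 0.73 and 0.87. Regardless of direction, the median absolute change of all listed transcripts was 1.33 and 1.41. Both lines are compared with the same wild-type libraries, so their changes are given side by side and not counted as separate evidence.

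IGFBP2 ENST00000233809.9 had 365 estimated counts in wild type, 3137 in UBE2B-/-1 and 2866 in UBE2B-/-2, on the scale of this fit. The SD within groups was 0.89 on the log2 scale. The log2 changes were 3.10 (q-value 0.00172) and 2.97 (q-value 0.00303) with an SE of 0.73. ENST00000456764.1 had 338, 1682 and 1700.1 estimated counts, with log2 changes of 2.31 (q-value 0.00454) and 2.33 (q-value 0.00411), SE 0.59. On the scale shared with the stages the lines had 3069 and 2804 estimated counts of ENST00000233809.9, above the 1149 of wild-type M cells, a difference that was not tested.

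For IGFBP3, ENST00000613132.4 had 2138 estimated counts in wild type, 8874 in UBE2B-/-1 and 11225 in UBE2B-/-2, with log2 changes of 2.05 (q-value 0.00067) and 2.39 (q-value 3.08e-05), SE 0.45. ENST00000275521.10 had 722, 3638 and 5273 estimated counts, with log2 changes of 2.33 (q-value 0.00045) and 2.87 (q-value 4.17e-06), SE 0.50. ENST00000381086.9, the most abundant IGFBP3 transcript at CP, is listed for neither line, and the split of reads between IGFBP3 transcripts is uncertain here too. Summed over the listed transcripts, IGFBP3 was 4.37 and 5.77 times and IGFBP2 6.85 and 6.49 times the wild-type value in UBE2B-/-1 and UBE2B-/-2.

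**Figure D4:**
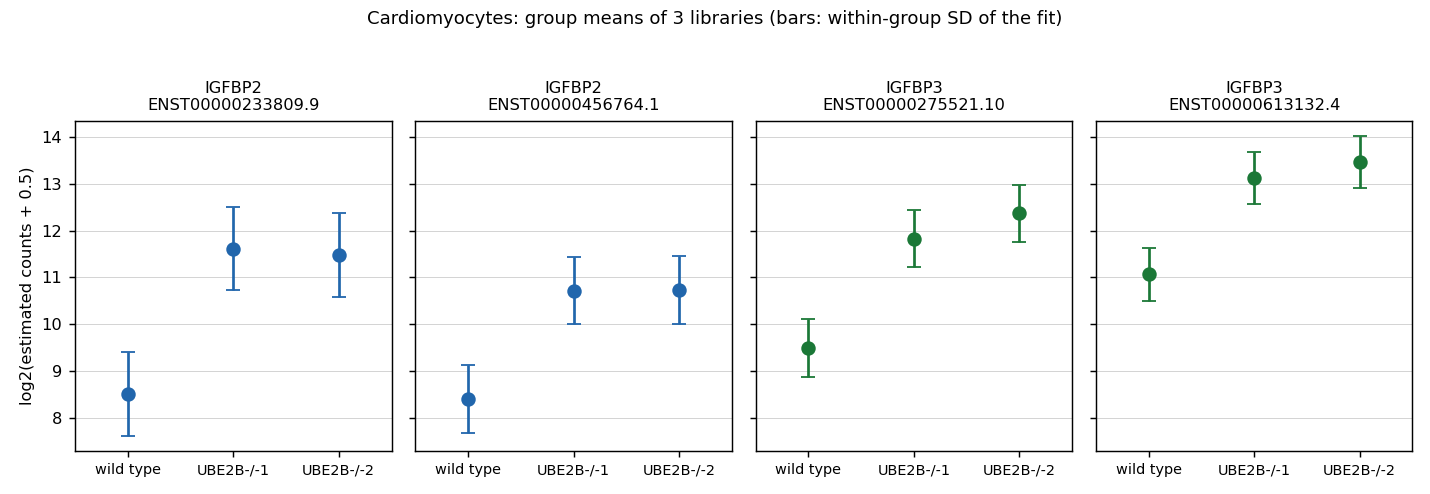
Group means of log2 estimated counts plus 0.5 (y axis) of the 4 member transcripts listed for both lines in wild-type, UBE2B-/-1 and UBE2B-/-2 CMs (x axis), 3 libraries each, with the within-group SD of the fit as bars. In every panel both mutant means lie above the wild-type mean by more than 2 log2 units.

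For these transcripts no difference between the lines was detected, but only transcripts listed for both lines were tested. Each had thus already passed the limit for listing in both lines against the same wild type, which favors similar changes. Transcripts listed for UBE2B-/-2 only, such as those of IGF2, were left out, so the test cannot show that the lines are alike. Of all 1992 transcripts tested in this way, 0 passed the limit on the q-value. The change in UBE2B-/-2 minus that in UBE2B-/-1 was -0.13 (95% interval -1.56 to 1.30) and 0.01 (-1.13 to 1.16) for the IGFBP2 transcripts ENST00000233809.9 and ENST00000456764.1. It was 0.54 (-0.45 to 1.52) and 0.34 (-0.55 to 1.23) for the IGFBP3 transcripts ENST00000275521.10 and ENST00000613132.4. The q-values, adjusted over the 1992 transcripts listed for both lines, were all 1.00. The intervals still allow differences of more than 1 log2 unit.

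IGF2 was called higher in UBE2B-/-2 through 2 short transcripts. ENST00000418738.2 changed by 2.42 (SE 0.60, q-value 0.00343) and ENST00000381392.5 by 3.43 (SE 0.73, q-value 0.000361). Neither is listed for UBE2B-/-1, where the variance columns of the tables leave a pair of possible changes for each, 0.99 or 1.43 for the former and 1.32 or 2.11 for the latter. All 4 values are positive and below the limit for listing, and a difference between the lines is not established by 1 line being listed. The wild-type CM level that goes with them is 232 or 210 estimated counts for ENST00000418738.2 and 16.2 or 13.4 for ENST00000381392.5, low beside the 26953 of ENST00000381395.5, which is listed for neither line. IGFBP5, IGFBP6 and IGFBP7 are also listed for neither line, and a transcript that is not listed is not shown to be unaltered.

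Markers of other cells moved with the genotype as well. Of 8 fibroblast and mesenchymal markers, 3 were higher in UBE2B-/-1 and 5 in UBE2B-/-2, and the transcripts listed for both lines summed to 9371 estimated counts in wild type, 95300 in UBE2B-/-1 and 248858 in UBE2B-/-2. DCN, which encodes the matrix protein decorin, had 6.66, 636 and 1804 estimated counts. Of 7 cardiomyocyte markers, 5 were lower in UBE2B-/-1 and 6 in UBE2B-/-2, with sums of 166320, 49744 and 41123 estimated counts. Of the other lists, 1 of 6 progenitor markers (GATA4) was higher in both lines, 1 of 4 smooth muscle markers (CNN1) lower in both, 1 of 6 endothelial markers (KDR) higher in UBE2B-/-2, and 1 of 7 endoderm markers higher in UBE2B-/-1 (SOX17) and lower in UBE2B-/-2 (EPCAM). The pluripotency, primitive streak and epicardial lists had 0 markers listed. The part of other cells in the higher IGFBP2 and IGFBP3 was not tested.

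A list of 47 other genes of the pathway was read from the same tables, each through its listed transcript with the highest mean. INS, INS-IGF2, IGF2-AS, H19, IGFALS, FOXO3 and RPS6KB1 are in no table. These counts are of genes, while the shares beside them are of all transcripts tested, so the 2 are not on the same basis. From iPSC to M, 3 were called higher and 3 lower, beside 1.24% and 1.62% of all transcripts. GRB14, an adaptor that restrains insulin receptor signaling, rose by 2.25 (SE 0.22), IGFBPL1, an IGFBP-like protein, by 1.32 (SE 0.14) and PIK3R1, a regulatory subunit of phosphoinositide 3-kinase, by 1.48 (SE 0.28). FOXO1, a transcription factor that insulin and IGF signaling keeps out of the nucleus, had a log2 change of -2.09 (SE 0.13), beside IRS4 (-1.10, SE 0.23) and STC1 (-2.39, SE 0.72).

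From M to CMes, 5 of the 47 were higher and 8 lower, beside 3.81% and 2.65% of all transcripts. PAPPA and HTRA1, proteases that cut IGFBPs, rose by 2.91 (SE 0.28) and 3.30 (SE 0.35), and FOXO1 by 1.00 (SE 0.16). GRB14 changed by -2.62 (SE 0.31), IGFBPL1 by -1.32 (SE 0.14) and EIF4EBP1, a brake on translation, by -1.39 (SE 0.13).

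From CMes to CP, where all 13 member transcripts rose, 6 pathway genes were higher and 6 lower, beside 3.8% and 2.63% of all transcripts. IRS1, the docking protein of IGF1R and the insulin receptor, had 1426 estimated counts at CMes and 5670 at CP and rose by 1.99 on the log2 scale (SE 0.10). PAPPA2, a protease that cuts IGFBP3 and IGFBP5, rose by 1.39 (SE 0.24). IGFBPL1 (-0.91, SE 0.13), INSRR (-2.59, SE 0.57) and IRS4 (-1.52, SE 0.36) were lower. IGF1, the other ligand, had 28.2 and 72.7 estimated counts at these stages and was called higher, with a log2 change of 1.35 (SE 0.42, q-value 0.0149).

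From CP to CM, 7 pathway genes were higher and 12 lower. PIK3R1 rose by 2.28 (SE 0.31), PIK3R3 by 2.12 (SE 0.34) and AKT1 by 1.22 (SE 0.23), although another transcript of AKT1 was called lower. IRS1 changed by -1.98 (SE 0.13), and by the transcript with the highest mean 5 of 7 adaptors were lower and 0 higher, while another transcript of the adaptor GRB2 was called higher. Of 6 regulators of IGF2 RNA, 5 were lower and 0 higher, which include LIN28B (-4.09, SE 0.53) and IGF2BP1 (-1.18, SE 0.19), a protein that binds IGF2 mRNA. Over all transcripts tested at this transition, 6.99% were called lower and 8.25% higher. IGF2 ENST00000381395.5 was called higher between the same stages.

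In the UBE2B-/- lines, 2 pathway genes were higher and 4 lower in UBE2B-/-1, and 2 higher and 3 lower in UBE2B-/-2. Over all transcripts tested, 2.18% were higher and 1.72% lower in UBE2B-/-1, and 2.46% and 1.53% in UBE2B-/-2. SHC1, an adaptor between receptors and RAS, changed by 2.00 and 2.38 (SE 0.50) in UBE2B-/-1 and UBE2B-/-2. RICTOR, a subunit of mTOR complex 2, changed by -1.30 and -1.17 (SE 0.21), RHEB, the activator of mTOR complex 1, by -1.02 in both (SE 0.22), and PIK3R1 by -1.04 and -1.02 (SE 0.30). TSC1 (7.57, SE 2.31) and PIK3CA (-0.97, SE 0.22) are listed for UBE2B-/-1 and HMGA2 (2.44, SE 0.74) for UBE2B-/-2, and their difference between the lines was not tested. The TSC1 value is of ENST00000642627.1 alone, with a wide SE and no group mean derived, so it does not give the change of TSC1 as a whole.

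The q-values rest on a normal distribution for the test statistic, as Sleuth computes them. With a t distribution on 4 degrees of freedom for a transition, or 6 for the fit of both lines, the only member transcript called was IGFBP5 ENST00000233813.5 from CMes to CP, and 0 were called in either line. All listed member transcripts had an unadjusted p under 0.05 in that setting, which is no separate support, since only transcripts with a large statistic are listed.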

How the data were processed

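Poly-A RNA-seq libraries of PGP1 cells were analysed, 3 in each of 7 groups taken from the sample labels. Per the submitters' processing notes and the study's methods, the authors trimmed reads, quantified transcripts with kallisto against hg38 and ran the Wald test in sleuth on normalized estimated counts after adding 0.5 and taking the natural log. The 6 deposited tables list transcripts with a q-value up to 0.05 and give the p-value beside it, then b (the effect), its SE and the mean on the natural log scale, and variance scores. These columns are the authors' own comparisons, used because there are 0 columns of values per library, so depth is unknown and no interval from counts can be given. The precision is the SE of the fit over 6 libraries for a transition and 9 for both lines.

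From these columns, with Python 3.11.15, pandas 2.3.3 and scipy 1.17.1, log2 changes (b divided by the natural log of 2), group means, SDs within groups (residual variance) and the numbers of transcripts tested were computed. The SE was checked against the variance columns on every listed transcript, and the p-value against b and its SE on all but those with the smallest p-values. The formulas for group means and numbers of transcripts tested were tried on simulated data. Calls required a q-value up to 0.05, and b had to reach log2(1.5) in absolute value. Levels of different tables were put on 1 scale by the median difference of the stage they share. The effects of both lines were subtracted and set against the SE of 1 line, because their common wild type drops out, with Benjamini-Hochberg adjustment.

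All 9 member genes are named, and pathway genes by the 3 largest absolute z per direction and comparison. Genes are read by their listed transcript with the highest mean, except the genes nearest to IGF2, which are given by the transcript that was near. IGF1 was named outside the rule on z, after its values were seen. Of the named pathway genes, 1 is not reported here. The members and lists were chosen with earlier results of these data known. Transcript models came from GENCODE 44 and promoters from RefSeq, both on GRCh38. Alternatives were another limit on b or on the q-value, none on b, a t distribution, a minimum mean of 10 estimated counts, 1 transcript per gene, the transcript with the largest z and no common scale.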

Additional observations from a re-analysis of the deposited data

How the results depend on the processing

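Counts of member transcripts called stayed within 1.5 times under a limit of ln(1.5) on b, no limit on b, a minimum mean of 10 estimated counts and a stricter q-value limit of 0.01. With 1 transcript per gene the counts were 4 from M to CMes, 5 from CMes to CP, 2 in UBE2B-/-1 and 3 in UBE2B-/-2, since fewer transcripts were counted. With a t distribution they were 0 at CMes against M, 1 at CP against CMes (IGFBP5), 0 at CM against CP, 0 in UBE2B-/-1 and 0 in UBE2B-/-2. Over all transcripts the calls in that setting were 0, 1, 561, 0 and 0 in the same order, and 0 from iPSC to M. At an unadjusted p under 0.05 with that distribution, the counts of member transcripts were 8, 13, 5, 4 and 6. Pathway genes called with it, an alternative chosen after seeing the data, numbered 0 in each of the comparisons except CM against CP, where there was 1, and at an unadjusted p under 0.05 16, 23, 16, 24, 7 and 7. Other limits, also added later, gave 12 pathway genes from iPSC to M with ln(1.5) on b and 3 in UBE2B-/-2 with a q-value of at most 0.01. Of 18 changes of named members, 17 lost their call with the t distribution, and 1, IGFBP6 from M to CMes, with a q-value of at most 0.01. No direction reversed in any of these settings. All 54 levels moved by less than the SD within groups without a common scale, and the 4 differences between the lines remained below the threshold with the t distribution.

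No paired analysis was possible because the deposited tables hold no values per library, and the replicate numbers of the labels cannot be followed into them. Leaving out a library, another normalization and a filter on unlisted transcripts could not be run for the same reason. The depth per library is unknown, and transcripts with a few estimated counts or 0 at the earlier stage had wide intervals.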
